A study of Mus musculus with 6 samples.

Results

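The genes described here carry out MHC class I antigen presentation. They are the heavy chains H2-K1 and H2-D1, the light chain B2m, the peptide transporter subunits Tap1 and Tap2, the loading factor Tapbp, the immunoproteasome subunits Psmb8, Psmb9 and Psmb10, and the transcriptional activator Nlrc5. Members were the rows of the deposited expression table with one of these 10 names, and 9 of the 10 had a row among the 22162 genes of the table. Nlrc5 was not analysed here. Poly(A) RNA was sequenced from mouse skin fibroblasts (MSFs) in 6 samples. The senescent group had 3 samples that received 10 µM tamoxifen (TAM) over 48 h, and the non-senescent group had 3 samples that received the ethanol vehicle (EtOH). Both groups were FVB/N cells of the same FASST genotype, which carries a tamoxifen-inducible Cre recombinase under the pro-alpha 2(I) collagen promoter and a p27Kip1 allele at ROSA26 preceded by a floxed stop cassette, with GFP as reporter. The control cells therefore carried the same alleles and differed in receiving ethanol. By the study's methods the MSF line came from the dorsal skin of 1 female mouse and was kept at 3% oxygen and 5% carbon dioxide. No source used here says that the 3 samples of a group came from separate animals, so the p-values measure the spread between these samples, which may be technical.

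MHC class I molecules display peptides from the inside of the cell to CD8+ T cells and natural killer cells. The proteasome cuts proteins into peptides, the transporter TAP carries them into the endoplasmic reticulum, and tapasin holds an empty heavy chain paired with beta-2 microglobulin until a peptide binds. Interferons raise the whole set in fibroblasts, and under interferon the immunoproteasome subunits take the places of the constitutive catalytic subunits. In the heavy chain and B2m genes the response to inflammatory signals runs through a binding site for NF-kB and a neighbouring site for interferon regulatory factors.

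These neighbouring sites are shown for the 3 genes whose proteins make the surface molecule. They were read from RefSeq windows of the 250 bases before the gene start (GRCm38.p6), and only these bases were searched. Each of the 3 windows matched mm9 exactly at 1 place. Capitals mark matches, on either strand, to the NF-kB consensus and to AANNGAAA, the core of the interferon regulatory factor site. In H2-K1 and H2-D1 a pair of overlapping NF-kB matches shares 1 run of capitals.
B2m: AACTGAAAatgGGAAAGTCCC
H2-K1: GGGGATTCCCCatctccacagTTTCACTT
H2-D1: GGGGATTCCCCatctcctcagTTTCACTT
The stretches lie at chr2:121973286-121973306 on the plus strand for B2m, chr17:34137375-34137403 on the minus strand for H2-K1 and chr17:35399868-35399896 on the plus strand for H2-D1, all in mm9. Their first bases lie at positions −137, −111 and −171 from the RefSeq gene start. The mm9 annotation used below starts H2-D1 earlier, at 35399675, so the H2-D1 stretch lies inside that gene entry. The H2-K1 and H2-D1 stretches were identical at 28 of 29 bases, and in B2m the matches stand in the opposite order. Of 32851 RefSeq windows, 3.9% held the NF-kB consensus and 21.3% held AANNGAAA. Windows were found for 8 of the 10 members, not for Tap2 or Nlrc5. Among these 8, B2m, H2-K1 and H2-D1 held both motifs, and Tap1, Tapbp, Psmb8, Psmb9 and Psmb10 held neither. Psmb8 held a match to TTCNNNGAA, the core of the GAS element, whose first base lies at position −97, as did 7.02% of all windows. The motifs were chosen with these sequences in view, and a match describes letters and not binding.

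In mm9, 7 of the 9 members with a row lie in the MHC on chromosome 17, in the order Tapbp, H2-K1, Psmb9, Tap1, Psmb8, Tap2 and H2-D1. Psmb9 (34318932 to 34324697, minus strand) and Tap1 (34324498 to 34334170, plus strand) start head to head and share 200 exon bases. Psmb8 (34334666 to 34338399) begins 495 bases after Tap1, and Tap2 (34340472 to 34353266) begins 2072 bases after Psmb8, both on the plus strand. Tapbp spans 34052844 to 34066235 on the plus strand, H2-K1 34132962 to 34137278 on the minus strand and H2-D1 35399675 to 35404444 on the plus strand. B2m lies on chromosome 2 (121973422 to 121978819, plus strand) and Psmb10 on chromosome 8 (108459628 to 108462292, minus strand). All 9 are annotated as protein-coding.

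The values are normalized counts, which are not whole numbers and whose scaling the table does not state. They summed to between 14952367 and 17314953 per library, and read totals are not known for 5 of the 6 libraries, so no counting interval was computed. Cdkn1b, the gene for p27Kip1, was at 1427, 3074 and 1853 normalized counts in EtOH replicates 1, 2 and 3 and at 1699, 1520 and 1630 in the TAM replicates (log2 fold change −0.32, SE 0.28, where SE is the standard error of the limma fit, adjusted p = 0.677). Whether reads of the p27Kip1 transgene were counted on this row is not stated, so it may or may not measure the activation. All 12 fibroblast markers looked at, such as Col1a1 and Dcn, were above 0 in every library, with sums of 1630992 to 1824797 normalized counts in EtOH and 770198 to 1211513 in TAM. Their median log2 fold change was −0.91, and 0 had an adjusted p under 0.05. In 7 of the 12 every TAM library was below every EtOH library, as in 11.4% of all genes. The reverse held in 1 of them, as in 9.19% of all genes.

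All 9 members were higher on average in TAM than in EtOH cells, but none passed the test across all genes. The test was limma on log2(normalized count + 1) over the 11877 genes with at least 1 c.p.m. (16.2 normalized counts) in at least 3 libraries, with a Benjamini-Hochberg adjusted p under 0.05. Over all genes tested, 0.168% were called higher and 0.0758% lower in TAM, and 0 of the 9 members were called. The fit with the replicate number as a block also called 0 members, against 1.00% of all genes higher and 0.615% lower. H2-K1, B2m and Psmb8 were higher in TAM at an unadjusted p under 0.05 and no member was lower, against shares over all genes of 6.67% and 6.70%. In the same 3 genes every TAM library was above every EtOH library, as in 9.19% of all genes. A log2 fold change above 0 was found in 46.2% of all genes, or in 58.2% with each library scaled to the same sum, where all 9 members were also above 0. As deposited, the median was 0.35 over the members and −0.03 over all genes. In RNA from whole cultures, a change in the share of cells that make a transcript and a change in transcript per cell cannot be told apart.

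**Figure D1:**
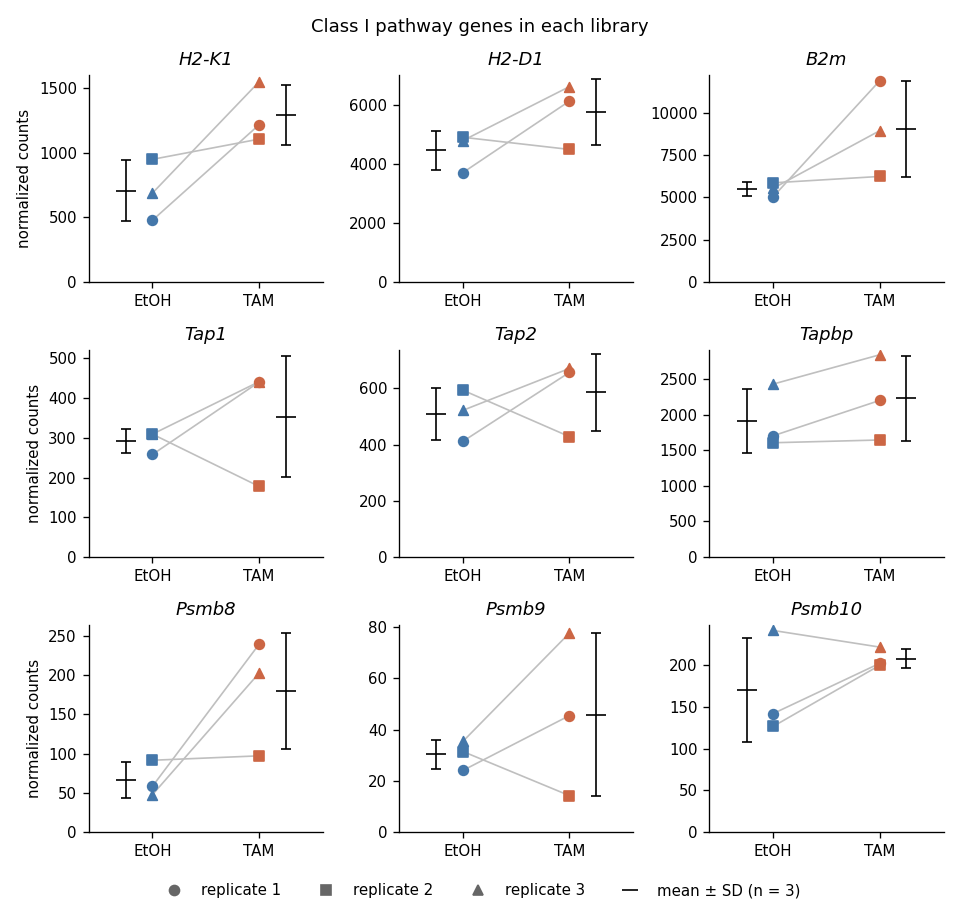
Normalized counts (vertical axes, from 0) of the 9 members in each library, EtOH in blue and TAM in red, with lines joining libraries of the same replicate number and bars giving the mean ± SD of 3 libraries. TAM replicate 2 is the lowest TAM library in all 9 panels, and in H2-K1, B2m and Psmb8 even this library lies above the 3 EtOH libraries.

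The heavy chains bind the peptide and are read by T-cell receptors. H2-K1 (ENSMUSG00000061232) was at 478, 950 and 689 normalized counts in EtOH replicates 1, 2 and 3 and at 1218, 1107 and 1551 in the TAM replicates. The groups did not overlap, with means of 706 ± 236 in EtOH and 1292 ± 231 in TAM (SD, n = 3 each). The log2 fold change was 0.91 (SE 0.28, 95% interval 0.26 to 1.57, limma adjusted p = 0.246). H2-D1 (ENSMUSG00000073411) was at 3701, 4899 and 4786 in EtOH and at 6124, 4487 and 6614 in TAM, so that TAM replicate 2 lay below 2 of the EtOH libraries. Its means were 4462 ± 661 and 5741 ± 1114 normalized counts (SD, n = 3 each), and the log2 fold change was 0.36 (SE 0.22, 95% interval −0.17 to 0.88, adjusted p = 0.553). Class I heavy chains are near copies of each other. Of the 50-base windows in their mm9 transcripts, 7.29% of those of H2-K1 and 12.8% of those of H2-D1 also occurred in other genes, most often in H2-D1 for H2-K1 and in H2-Q2 for H2-D1. FVB mice carry other class I alleles than the C57BL/6J strain of mm9, so reads of these genes may have been split or lost, which was not tested.

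B2m (ENSMUSG00000060802), the invariant light chain, had the highest level of the members. It was at 5046, 5866 and 5544 normalized counts in EtOH replicates 1, 2 and 3 and at 11913, 6244 and 8954 in the TAM replicates. The EtOH libraries lay close together (5486 ± 413) and the TAM libraries spread widely above them (9037 ± 2836, SD, n = 3 each). The log2 fold change was 0.67 (SE 0.26, 95% interval 0.06 to 1.29, limma adjusted p = 0.332). None of the 50-base windows of B2m occurred in another gene.

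A surface molecule needs 1 light chain per heavy chain, so B2m was set against the sum of H2-K1 and H2-D1 within each library, a ratio that does not depend on how libraries were scaled. B2m stood at 121%, 100.3% and 101% of the summed heavy chains in EtOH replicates 1, 2 and 3 and at 162%, 112% and 110% in the TAM replicates. These are ratios of counts and not of molecules, so 100% does not mean equal numbers of transcripts. The annotated exons span 860 bases for B2m, 2608 for H2-K1 and 2588 for H2-D1. The ratio was higher in TAM in 3 of 3 same-numbered pairs, while EtOH replicate 1 lay above TAM replicates 2 and 3. The difference was 0.23 on the log2 scale, or 1.17-fold (exact permutation test, two-sided, p = 0.3, where 3 against 3 libraries cannot give less than 0.1). Without TAM replicate 1 the log2 difference was 0.048.

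Tap1 and Tap2 form the transporter that moves peptides into the endoplasmic reticulum. Tap1 (ENSMUSG00000037321) was at 258, 309 and 309 normalized counts in EtOH replicates 1, 2 and 3 and at 440, 178 and 441 in the TAM replicates. Of the 6 libraries, TAM replicate 2 was the lowest and the other TAM libraries the highest, so the EtOH libraries lay inside the spread of the TAM libraries (292 ± 29.5 in EtOH and 353 ± 152 in TAM, SD, n = 3 each). Tap2 (ENSMUSG00000024339) was at 411, 593 and 522 in EtOH and at 657, 428 and 671 in TAM, with TAM replicates 1 and 3 again the highest. The log2 fold changes were 0.16 (SE 0.37, limma adjusted p = 0.889) for Tap1 and 0.19 (SE 0.24, adjusted p = 0.785) for Tap2. Without TAM replicate 1 or 3 the value of Tap1 turned to −0.06. The table gives Tap2 an interval of 1289 bases where the mm9 annotation gives 12795, and whether reads were counted on the shorter interval is not stated. Exon bases of Tap2 are also overlapped on the opposite strand by Gm15821 (14.1% of them), and whether counting used strand is not stated.

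Tapbp encodes tapasin, which bridges the heavy chain to the transporter. Tapbp (ENSMUSG00000024308) was at 1707, 1608 and 2434 normalized counts in EtOH replicates 1, 2 and 3 and at 2205, 1647 and 2847 in the TAM replicates. Each TAM library was above the EtOH library of the same number, while the groups overlapped widely. The means were 1916 ± 451 and 2233 ± 600 (SD, n = 3 each), with a log2 fold change of 0.21 (SE 0.26, limma adjusted p = 0.775).

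**Figure D2:**
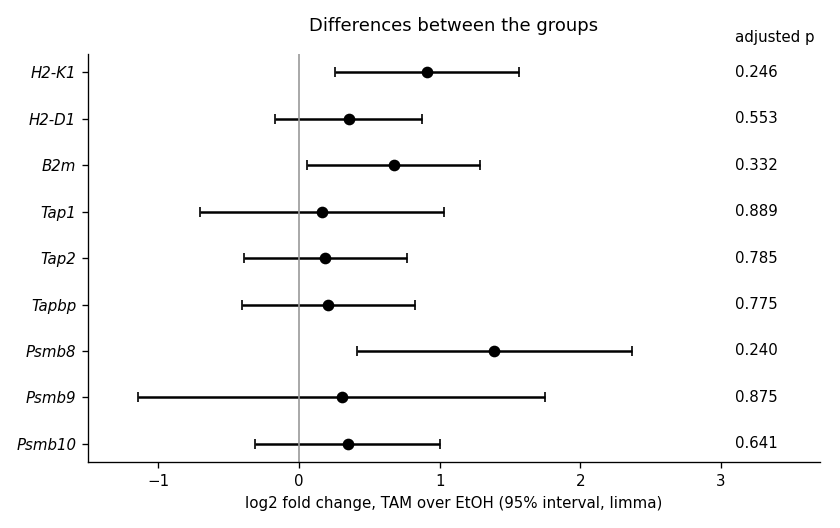
Log2 fold change of TAM over EtOH (horizontal axis) for the 9 members, with 95% intervals from limma and the adjusted p at the right. The intervals of H2-K1, B2m and Psmb8 lie above 0, those of the other 6 members include 0, and the adjusted p ranges from 0.240 to 0.889.

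Psmb8, Psmb9 and Psmb10 are the immunoproteasome's catalytic subunits, which favour the peptide ends that class I molecules bind. Psmb8 (ENSMUSG00000024338) had the largest log2 fold change of the members. It was at 58.4, 91.5 and 47.7 normalized counts in EtOH replicates 1, 2 and 3 and at 239, 97.2 and 203 in the TAM replicates, so the groups did not overlap but TAM replicate 2 lay just above EtOH replicate 2. The means were 65.9 ± 22.9 and 180 ± 73.8 (SD, n = 3 each), a ratio of 2.73, and the log2 fold change was 1.39 (SE 0.42, 95% interval 0.41 to 2.37, limma adjusted p = 0.240). Psmb9 (ENSMUSG00000024337) was near the limit of the filter, at 24.1, 31.5 and 35.4 in EtOH and at 45.5, 14.2 and 77.7 in TAM. TAM libraries held both its highest and its lowest value, and the log2 fold change was 0.30 (SE 0.61, adjusted p = 0.875), turning to −0.22 without TAM replicate 3. The mm9 annotation holds a further gene entry named Psmb9 over 99.97% of these exon bases, and how reads in both entries were assigned is not stated. Psmb10 (ENSMUSG00000031897) was at 142, 127 and 242 in EtOH and at 203, 200 and 222 in TAM. Here the TAM libraries lay close together and inside the range of the EtOH libraries (170 ± 62.5 and 208 ± 11.9, SD, n = 3 each), with a log2 fold change of 0.35 (SE 0.28, adjusted p = 0.641).

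Each inducible subunit takes the place of 1 constitutive subunit in the proteasome, Psmb8 that of Psmb5, Psmb9 that of Psmb6 and Psmb10 that of Psmb7. The constitutive subunits did not pass the test, with mean normalized counts of 877 in EtOH and 1178 in TAM for Psmb5 (log2 fold change 0.40, limma adjusted p = 0.581), 1107 and 1048 for Psmb6 (−0.09, adjusted p = 0.869) and 1253 and 1465 for Psmb7 (0.22, adjusted p = 0.638). Psmb8 stood at 5.48%, 13.2% and 5.46% of Psmb5 in EtOH replicates 1, 2 and 3 and at 26.1%, 6.04% and 20.1% in the TAM replicates. TAM replicates 1 and 3 were thus the highest of the 6 libraries, while TAM replicate 2 was below EtOH replicate 2. The mean difference was 1.00 on the log2 scale (exact permutation test, two-sided, p = 0.2, 0.6 after Benjamini-Hochberg adjustment over the 3 ratios). Psmb9 stood at 2.06%, 2.96% and 3.25% of Psmb6 in EtOH and at 5.28%, 1.16% and 7.35% in TAM, with the same library apart from its group. Psmb10 stood at 10.2%, 10.5% and 20.8% of Psmb7 in EtOH and at 14.3%, 11.8% and 17.3% in TAM, with the TAM libraries inside the EtOH range. The log2 differences of these 2 ratios were 0.40 (exact permutation p = 0.7, adjusted 0.8) and 0.13 (exact permutation p = 0.8, adjusted 0.8). These are ratios of counts and not of molecules, since the transcripts differ in length.

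**Figure D3:**
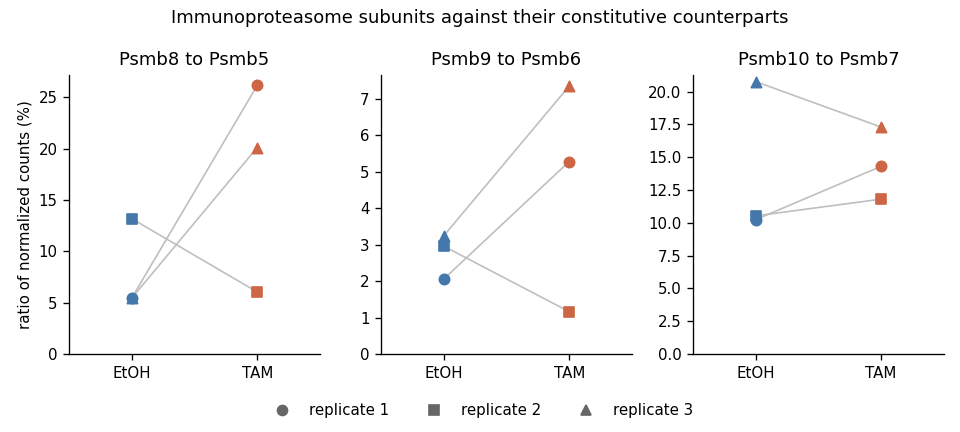
Ratio of normalized counts in percent (vertical axes, from 0) of each immunoproteasome subunit to the constitutive subunit it replaces, in each library, with lines joining libraries of the same replicate number. Psmb8 to Psmb5 and Psmb9 to Psmb6 go up in replicates 1 and 3 and down in replicate 2, from 13.2% to 6.04% and from 2.96% to 1.16%.

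The differences were not alike in the 3 pairs of same-numbered libraries. In replicate 1 all 9 members were higher in TAM, with a median log2 ratio of 0.77, and in replicate 3 it was 8 of 9, with a median of 0.51. In replicate 2 it was 5 of 9, with a median of 0.03. Over all genes tested the medians were −0.05, 0.001 and −0.05 in replicates 1, 2 and 3. Psmb8 had log2 ratios of 2.04, 0.09 and 2.09 in replicates 1, 2 and 3, H2-K1 of 1.35, 0.22 and 1.17, and B2m of 1.24, 0.09 and 0.69. Together with Tapbp these were the 4 of 9 members that were higher in all 3 pairs, as were 18.3% of all genes. The sign turned in replicate 2 for H2-D1 (0.73, −0.13 and 0.47), Tap1 (0.77, −0.80 and 0.51), Tap2 (0.68, −0.47 and 0.36) and Psmb9 (0.92, −1.15 and 1.14). This pattern, higher in pairs 1 and 3 and lower in pair 2, was found in 4 of 9 members and 11.7% of all genes. Psmb10 went another way, with log2 ratios of 0.51, 0.66 and −0.12. Pair 2 gave the smallest difference in 8 of 9 members, as in 40.3% of all genes, and TAM replicate 2 was the lowest TAM library in 9 of 9, as in 40.2% of all genes. Pair 1 was also widened from its other side, since EtOH replicate 1 was the lowest EtOH library in 6 of 9 members, as in 30.2% of all genes. The members are not independent of each other, so these counts are descriptions.

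**Figure D4:**
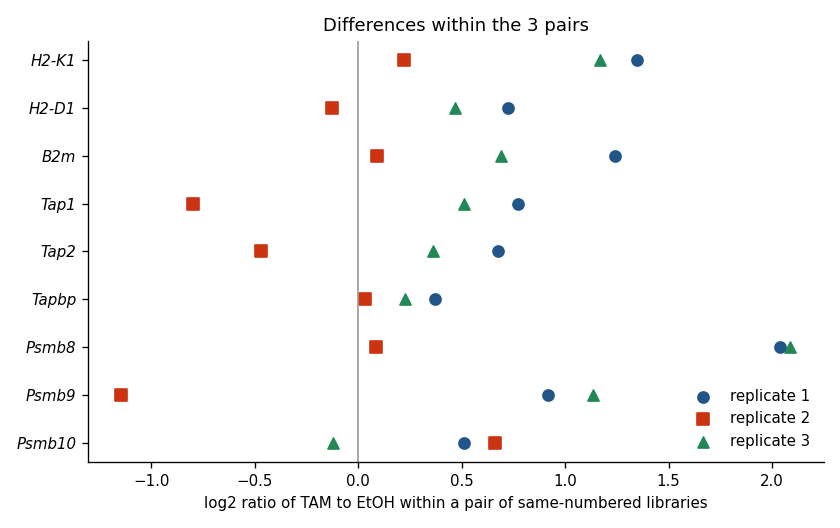
Log2 ratio of TAM to EtOH (horizontal axis) within each pair of libraries with the same replicate number, for the 9 members. Replicate 2 (squares) is the leftmost point in all members but Psmb10, and lies below 0 for H2-D1, Tap1, Tap2 and Psmb9.

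TAM replicate 2 was the lowest TAM library in all 9 members, so leaving it out had to raise every member's log2 fold change. That fit called 0 members. It had 6 of the 9 higher in TAM at an unadjusted p under 0.05, against 5.66% of all genes tested in it. Leaving out any other single library gave 2 or 3 of the 9. Leaving out both libraries numbered 2, an alternative added after seeing the data, also gave 6 of 9, against 8.81% of all genes. The members' median log2 fold change was then 0.64. When limma estimated a weight for each library from its spread, 3 members were called in place of 0, against 3.25% of all genes called higher. These were Psmb8 (1.85, adjusted p = 0.0120), H2-K1 (1.28, adjusted p = 0.0208) and B2m (0.79, adjusted p = 0.0405). With these weights 7 of the 9 members were higher at an unadjusted p under 0.05, against 11.6% of all genes.

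Per kilobase of exon, the members spanned a wide range of levels in EtOH cells. B2m was at 6379 ± 480 normalized counts per kilobase, H2-D1 at 1724 ± 256, Tapbp at 581 ± 137 and H2-K1 at 271 ± 90.6 (SD, n = 3). Tap2 (135 ± 24.3) and Psmb10 (134 ± 49.2) followed and their ranges overlapped. Tap1 was at 53.3 ± 5.39, Psmb8 at 24.1 ± 8.36 and Psmb9 at 8.31 ± 1.58. No other neighbours in this order overlapped, so with these lengths the surface molecule's chains stood above the transporter and the transporter above Psmb8 and Psmb9. The place of Tap2, in EtOH and in TAM cells, rests on its 3781 annotated exon bases. If reads were counted on the interval of 1289 bases only, its level per kilobase would be higher and its place could differ. In TAM cells B2m was at 10508 ± 3297, H2-D1 at 2218 ± 430, Tapbp at 677 ± 182 and H2-K1 at 495 ± 88.6 normalized counts per kilobase. Psmb10 (164 ± 9.39), Tap2 (155 ± 36.0), Psmb8 (65.7 ± 27.0), Tap1 (64.5 ± 27.7) and Psmb9 (12.6 ± 8.70) completed the order. The ranges of Tapbp and H2-K1, of Psmb10 and Tap2, and of Psmb8 and Tap1 overlapped, so that the gap between Psmb8 and Tap1 seen in EtOH cells was not present in TAM cells. Lengths are the union of annotated exons, which can be longer than the transcripts these cells make.

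Other class I and class I-like genes lay on both sides of 0. Of 25 listed, 20 had a row and 13 were tested, 0 were called without the block, and the median log2 fold change was 0.01. Their median log2 ratios in replicates 1, 2 and 3 were 0.56, −0.48 and 0.44, with 11, 3 and 8 of the 13 higher in TAM. Pair 2 gave the smallest difference in 11 of the 13, as in 40.3% of all genes, so replicate 2 stood apart here as in the members. H2-T10, a non-classical heavy chain, was at 219, 231 and 169 normalized counts in EtOH replicates 1, 2 and 3 and at 519, 862 and 484 in the TAM replicates. Its groups did not overlap, with TAM higher, as in 9.19% of all genes. Unlike in the members, TAM replicate 2 was the highest. The log2 fold change was 1.55 (SE 0.27, limma adjusted p = 0.0915). In the limma fit with the replicate block the SE was 0.20 and H2-T10 passed the test (adjusted p = 0.0429). Of the 50-base windows of H2-T10, 38.4% also occurred in H2-T22, which was not analysed here, so its counts may hold reads of both. H2-Q1 was at 19.4, 26.7 and 14.1 normalized counts in EtOH and at 36.6, 37.7 and 42.0 in TAM, without overlap but at low values (log2 fold change 0.96, SE 0.38, adjusted p = 0.337).

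Around the members, the rest of the proteasome and the loading machinery had list medians between −0.13 and 0.22. None of the 3 constitutive catalytic subunits, 11 other core subunits or 4 activator subunits had an unadjusted p under 0.05, and the median log2 fold changes of these lists were 0.22, 0.08 and −0.05. Psme1, a subunit of the interferon-inducible activator, was at a mean of 679 normalized counts in EtOH and 469 in TAM (log2 fold change −0.54, limma adjusted p = 0.411), the other direction from the immunoproteasome subunits. Of 12 chaperones and peptidases of the endoplasmic reticulum and cytosol, 0 were called. A log2 fold change above 0 was found in 4 of the 12, against 46.2% of all genes, and the median was −0.13. Hspa5, the main chaperone of that compartment, was at 22484, 60659 and 25378 normalized counts in EtOH replicates 1, 2 and 3 and at 9259, 13205 and 7445 in the TAM replicates. All TAM libraries were lower, as in 11.4% of all genes, and the log2 fold change was −1.75 (SE 0.43, adjusted p = 0.182). Sec61a1, a channel subunit of the same membrane, had means of 5776 and 4184 (−0.49, SE 0.21, adjusted p = 0.373).

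Among 20 regulators of class I transcription and interferon signalling, 0 were called, none had an unadjusted p under 0.05, and the median log2 fold change was −0.01. Irf1, a factor that binds sites of the AANNGAAA kind, was at 282, 745 and 457 normalized counts in EtOH replicates 1, 2 and 3 and at 476, 286 and 635 in the TAM replicates (log2 fold change −0.05, limma adjusted p = 0.975). The groups overlapped, and TAM replicate 2 was the lowest TAM library. Irf1 was chosen from the list after its values were seen.

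Interferon-stimulated genes outside the class I pathway also had their highest median ratio in replicate 1 and their lowest in replicate 2. Of 32 listed, 31 had a row and 27 were tested, and 0 of them were called. A log2 fold change above 0 was found in 22 of the 27, against 46.2% of all genes, and the median was 0.42. In TAM, 8 of the 27 were higher and 1 was lower at an unadjusted p under 0.05, against shares over all genes of 6.67% and 6.70%. Their median log2 ratios in replicates 1, 2 and 3 were 1.09, 0.002 and 0.46, with 24, 14 and 23 of the 27 higher in TAM. Over the 31 genes with a row, EtOH replicates 1, 2 and 3 summed to 8156, 10622 and 9915 normalized counts. The TAM replicates summed to 14108, 9424 and 13154. In these sums TAM replicate 2 was the lowest TAM library and EtOH replicate 2 the highest EtOH library, though not in Oas2 and Usp18 for EtOH. Oas2, an antiviral RNA sensor, was at 20.8, 54.3 and 61.9 normalized counts in EtOH and at 221, 70.4 and 218 in TAM, again with TAM replicate 2 near the EtOH libraries (log2 fold change 1.84, SE 0.59, limma adjusted p = 0.258). Usp18, a negative regulator of interferon signalling, was at 63.1, 101 and 102 in EtOH and at 269, 149 and 161 in TAM (1.09, SE 0.32, adjusted p = 0.238). Ifi44 was low throughout, with means of 9.04 and 33.0 (1.72, SE 0.51, adjusted p = 0.240). The interferon-stimulated genes and the members were not tested against each other.

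**Figure D5:**
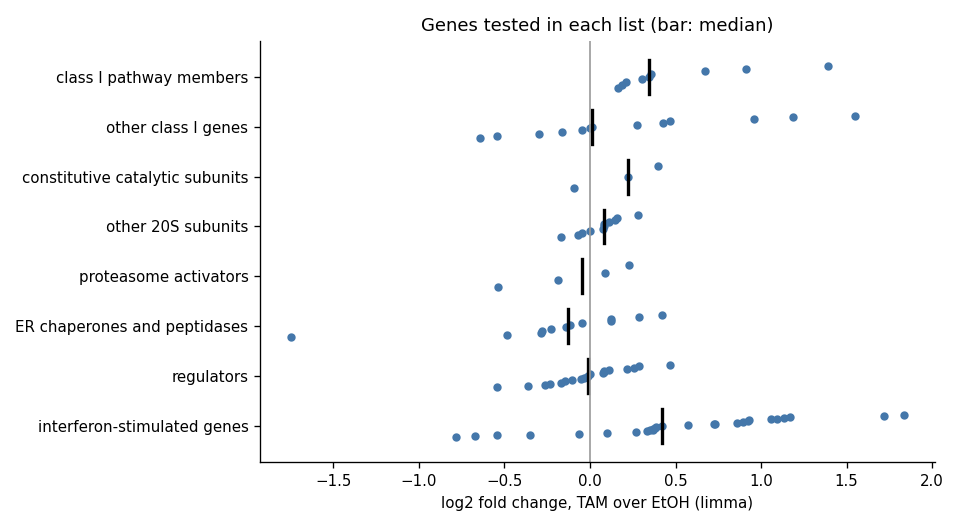
Log2 fold change of TAM over EtOH from limma (horizontal axis) for each gene tested, by list, with a bar at the median of each list. The class I members lie to the right of 0 with a median of 0.35, the interferon-stimulated genes reach from below 0 to 1.84 with a median of 0.42, and the other lists have medians between −0.13 and 0.22.

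Leukocytes also make much class I RNA, so their markers were read in the same libraries. Of the 14 leukocyte and macrophage markers, Emr1, Tyrobp and Cd3e were at 0 in all 6 libraries, and Ptprc, which all leukocytes express, was at no more than 0.74 normalized counts in EtOH and 5.01 in TAM. The list summed to 209 to 539 in EtOH and 376 to 565 in TAM, mostly from Csf1r, Lyz2, Cd68 and Cd14. Of these, 3 were higher in TAM on average and 1 was lower, and 0 passed the limma test, with Lyz2 and Cd14 at an unadjusted p under 0.05. The means in EtOH and TAM were 48.3 and 135 normalized counts for Lyz2 (log2 fold change 1.48, limma adjusted p = 0.141), 74.5 and 143 for Csf1r (0.82, adjusted p = 0.388), 40.7 and 81.2 for Cd14 (1.08, adjusted p = 0.320) and 167 and 85.3 for Cd68 (−0.59, adjusted p = 0.758). In Lyz2 and Csf1r, as in H2-K1, B2m and Psmb8, every TAM library was above every EtOH library, a pattern found in 9.19% of all genes. The 10 class II genes, which professional antigen-presenting cells use, summed to 49.4 to 89.7 in EtOH and 62.8 to 92.9 in TAM, and H2-Aa was at 0 in EtOH and at no more than 0.79 in TAM. Endothelial markers summed to 92.5 to 241 in EtOH and 24.6 to 45.2 in TAM. Kdr made up most of the sum in EtOH but not in TAM (means of 130 and 8.79, log2 fold change −3.71, limma adjusted p = 0.0608, or 0.0488 under the replicate block), while Cldn5 was at 0 in all libraries. Keratinocyte markers summed to 81.1 to 92.2 in EtOH and 67.2 to 131 in TAM, with Krt1 at 0 in all libraries. Krt10 was at 41.0 to 59.1 over all libraries. Trp63 was lower in TAM (means of 25.25 and 5.51, log2 fold change −2.11, limma adjusted p = 0.187). Dsp was at 2.89, 12.4 and 5.22 in EtOH replicates 1, 2 and 3 and at 4.22, 69.5 and 29.8 in the TAM replicates. Krt5 was at no more than 0.64 in EtOH and at 2.96, 7.53 and 13.4 in the TAM replicates. The part of other cell types in the members' values was not tested.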

How the data were processed

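RNA-seq of 6 MSF samples was analysed from 1 table. The authors used TopHat to map reads to mm9, htseq-count to assign them to RefSeq genes, and edgeR (TMM normalization) for their own comparison. Tool versions are not given in the sources used here. The deposited signal holds a normalized count for each gene in each library, with Ensembl and RefSeq identifiers. Since its values are not whole numbers, count models were not used.

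The members, gene lists and tests were chosen with earlier results of these data known. Genes that reached 1 c.p.m. in 3 of 6 libraries were fitted with limma 3.58.1 (R 4.3.3) on log2(value + 1) with an intensity trend, two-sided, with Benjamini-Hochberg adjustment over all 11877 genes. The added 1 makes fold changes of low genes smaller. Ratios within libraries were tested by exact permutation over the 6 libraries in scipy 1.17.1. The model was first tested on simulated data. Positions and exon lengths came from the GENCODE M1 annotation of mm9, and promoter windows from RefSeq (GRCm38.p6). Python 3.11.15 was used with pandas 2.3.3 for tables and matplotlib 3.10.9 for plots.

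Deviations from the group means correlated across genes, which are not independent replicates, with r of 0.24, 0.29 and 0.42 between same-numbered libraries and of −0.31 to 0.04 between others (9 correlations). The pairing comes from the replicate numbers in the labels. These correlations do not establish that the libraries are paired. Deviations within a group cancel, so positive values between some libraries push the others to negative ones. The main fit and the permutation tests left the pairing out, and the replicate block was an alternative. The others were filters, pseudocounts, scalings, library weights and leaving out each library.

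Named genes were the members, Psmb5, Psmb6 and Psmb7, genes of the other lists with an adjusted p under 0.05 in either fit, and up to 3 of the largest changes at an unadjusted p under 0.05 in the lists of chaperones, activators, other class I genes, regulators and interferon-stimulated genes. Psme1, Irf1 and the marker genes named with values were added after their values were seen. The depth is known for TAM replicate 2 only, where low values are multiples of 0.837 normalized counts. 1 gene of the lists is not reported here by name.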

Additional observations from a re-analysis of the deposited data

How the results depend on the processing

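Of 312 values recomputed under alternatives, 296 were taken as kept. Log2 fold changes had to keep their direction and their side of the threshold, and counts had to stay within 1.5 times. Ratios and the members' median had to keep their direction and move by less than a pooled SD between replicates, such as 0.95 for Psmb8 to Psmb5. The block cannot change a log2 fold change here and many counts were 0, so the number kept does not measure stability. With library weights 3 members were called in place of 0, and 7 in place of 3 had an unadjusted p under 0.05, while over all genes 1381 in place of 792 were higher and 1566 in place of 796 lower at that p. The count of members was 2 to 6 with 1 library left out, and 6 without both libraries numbered 2, an alternative added after seeing the data, where the members' median was 0.64 against 0.35. The median was 0.23 to 0.60 with 1 library left out. With the replicate block 1 other class I gene (H2-T10) was called in place of 0, and Kdr passed too; the block changed no other call of a gene named here, while over all genes it called 119 higher and 73 lower in place of 20 and 9. Leaving out 1 library reversed 7 of the 312 values, which belong to 4 results. These were Tap1 (−0.056 without TAM replicate 1 and −0.057 without TAM replicate 3, range to 0.60), Psmb9 (−0.22 without TAM replicate 3, range to 0.97), the log2 ratio of Psmb9 to Psmb6 (−0.13 without TAM replicate 3, range to 1.20) and that of Psmb10 to Psmb7 (−0.049 without EtOH replicate 1, −0.029 without EtOH replicate 2 and −0.0098 without TAM replicate 3, range to 0.46). The causes were not tested. With 1 library left out, the log2 fold changes were 0.66 to 1.15 for H2-K1, 0.45 to 0.92 for B2m, 1.13 to 1.78 for Psmb8, 0.23 (without EtOH replicate 1) to 0.52 (without TAM replicate 2) for H2-D1, 0.04 (without EtOH replicate 1) to 0.40 (without TAM replicate 2) for Tap2, 0.02 (without TAM replicate 3) to 0.41 (without TAM replicate 2) for Tapbp and 0.16 (without EtOH replicate 2) to 0.63 (without EtOH replicate 3) for Psmb10. The log2 ratio of Psmb8 to Psmb5 differed by 0.59 (without TAM replicate 1) to 1.64 (without TAM replicate 2), and that of B2m to the heavy chains by 0.048 (without TAM replicate 1) to 0.33 (without TAM replicate 3). Scaling each library to the mean sum moved the median of all genes from −0.03 to 0.08 and left all 9 members above 0. The share of all genes above 0 went from 46.2% to 58.2%, and at an unadjusted p under 0.05 there were 1124 higher and 475 lower. Over all genes, library weights called 386 higher and 356 lower, leaving out TAM replicate 2 called 1 and 4 (663 and 893 at an unadjusted p under 0.05), leaving out both libraries numbered 2 called 5 and 4 (1016 and 1253), and no filter on low values called 12 and 5. Precision is limited by 3 libraries in each group and, for Psmb9, by values near the filter.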
